A study of Mus musculus with 2 samples.

Results

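The 10 genes described here are secreted Wnt signals, their secreted enhancers and inhibitors, and 1 target gene of the pathway, read in UV-positive cells of the mouse lung. They are *Wnt2*, *Wnt5a*, *Wnt11*, *Rspo1*, *Rspo3*, *Sfrp1*, *Dkk3*, *Dkk2*, *Axin2* and *Wif1*. They were taken by symbol, 1 row each, from the 32285 genes listed in the count matrices. UV-positive cells are cells sorted by flow cytometry for the autofluorescence of stored retinoids. The 2 single-cell libraries came from lungs of untreated wild-type male C57BL/6 mice aged 3 months, digested with pronase and collagenase, and were prepared on separate occasions. Both libraries belong to 1 condition, so every comparison below is between classes of cells within the same libraries. The number of mice in each library is not given in the sources used here. No transgene or induced allele was involved, and the sort, which selects for retinoid autofluorescence, sets which lung cells are present.

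Wnt proteins are secreted lipid-modified ligands that bind Frizzled receptors together with co-receptors. In the canonical branch this binding stabilizes β-catenin, which acts with TCF/LEF factors on target genes, while other Wnts act mainly through β-catenin-independent routes. R-spondins strengthen the response by keeping Frizzled receptors at the cell surface, and secreted inhibitors such as SFRPs, DKKs and WIF1 bind the ligands or the co-receptors. In the lung, Wnt signals from mesenchymal cells are known to act in the development of the organ and in the upkeep of the alveolar epithelium.

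Cells were placed in classes by summed unique molecular identifiers (UMIs, each standing for 1 captured transcript molecule) of gate genes, and the members were not among the gate genes. A cell counted as stromal with 3 or more UMIs of *Col1a2*, *Mfap4* and *Pdgfra*, and 3 or more UMIs of 3 other gene sets marked endothelial, epithelial and immune cells. Only cells passing exactly 1 gate were used. Stromal cells with 3 or more *Dcn* UMIs are called adventitial, those with 0 alveolar, and those with 1 to 2 intermediate. Libraries 1 and 2 held 7645 and 7438 stromal cells, of which 1017 and 998 were adventitial, 823 and 895 intermediate, and 5805 and 5545 alveolar. There were 56 and 360 endothelial, 930 and 101 epithelial, and 266 and 334 immune cells. The unit of level is CPM, a gene's UMIs as a share of all UMIs of the class in that library, scaled to the common total that defines CPM.

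Depth and purity differed between classes and libraries. The libraries held 48762735 and 93970185 UMIs over 9669 and 10050 barcodes, of which 9634 and 9988 passed the quality filter, and 23 barcodes occurred in both. Adventitial cells were deeper, with medians of 6034 and 10656 UMIs against 3958 and 6545 in alveolar cells, so the *Dcn* gate moved with depth. The endothelial sum of library 1 held 119534 UMIs, where a single UMI equals 8.37 CPM. Cells that passed several gates numbered 420 and 1640 and were left out. In library 2 the endothelial cells carried the epithelial transcripts *Ager* at 154 CPM and *Cldn18* at 58.4 CPM, and the part of this in the endothelial results was not tested. *Col1a1*, a stromal transcript, stood in endothelial cells at 3.05% and 1.82% of its stromal CPM, and in epithelial and immune cells at 0.225% to 0.83%.

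The class names were checked against markers. Of 8 adventitial marker genes 7 passed the expression filter and all 7 were higher in adventitial cells, while *Dpp4* stood at 3 and 1 UMIs there. All 8 alveolar markers were lower in adventitial cells. The 5 tested markers of ductal myofibroblasts, such as *Hhip* and *Aspn*, were also higher in the adventitial class, at a summed 243 and 222 CPM against 76.8 and 108 CPM in alveolar cells, and the part of these cells in the results below was not tested. As a group of stromal genes the set held for *Wnt2*, *Wnt5a*, *Sfrp1* and *Dkk3*. It did not hold for *Rspo3*, which was higher in endothelial cells, or for *Wnt11*, which was higher in immune cells.

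Windows before the transcription start were available from RefSeq (GRCm38.p6) for 6 of the 10 members, and they were searched for CTTTGAT, the 7-letter core bound by TCF/LEF factors, on both strands. *Wnt2*, *Wnt11* and *Axin2* are shown because they stand for 3 patterns below, a ligand higher in alveolar cells, a ligand higher outside the stroma, and the target gene. The *Wnt11* window spans chr7:98834862-98835111 on the plus strand. The *Axin2* window spans chr11:108920099-108920348 on the plus strand. For *Wnt2*, on the minus strand, the 110 bases at chr6:18030586-18030695 are printed, which precede both the RefSeq and the GENCODE start. Capitals mark a match to the core.
Wnt2: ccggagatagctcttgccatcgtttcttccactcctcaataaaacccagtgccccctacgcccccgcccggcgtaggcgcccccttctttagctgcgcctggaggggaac
Wnt11: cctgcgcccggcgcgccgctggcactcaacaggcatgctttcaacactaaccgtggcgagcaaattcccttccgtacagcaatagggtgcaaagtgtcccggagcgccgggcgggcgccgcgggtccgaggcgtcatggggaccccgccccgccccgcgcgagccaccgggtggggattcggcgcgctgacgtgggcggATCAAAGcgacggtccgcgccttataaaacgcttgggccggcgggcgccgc
Axin2: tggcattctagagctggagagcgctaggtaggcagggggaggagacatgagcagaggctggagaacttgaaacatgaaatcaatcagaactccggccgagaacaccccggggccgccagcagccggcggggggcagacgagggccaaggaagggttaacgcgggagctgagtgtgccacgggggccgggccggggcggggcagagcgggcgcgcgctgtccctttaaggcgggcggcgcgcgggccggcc
The core was found once, in reverse orientation, in the *Wnt11* window, 45 to 51 bases before the start. The 250-base windows of *Wnt2* and *Axin2*, a second *Wnt11* start, *Rspo1*, *Dkk2* and *Wif1* held no match. Among 32851 windows of the same length 1053 (3.21%) held it. A match describes letters and not a bound site.

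The genes lie on several chromosomes of mm10 (GRCm38), all of them protein coding in GENCODE. *Wnt2* spans chr6:17988940-18030585 on the minus strand, *Wnt5a* chr14:28504750-28527448 and *Wnt11* chr7:98835112-98855195, both on the plus strand. *Rspo1* spans chr4:124986430-125009099 on the plus strand and *Rspo3* chr10:29452416-29535867 on the minus strand. *Sfrp1* spans chr8:23411502-23449632 on the plus strand, *Dkk3* chr7:112116017-112159057 on the minus strand, *Dkk2* chr3:132085292-132180304 and *Wif1* chr10:121033960-121100650, both on the plus strand. *Axin2* spans chr11:108920349-108950783 on the plus strand. Antisense genes overlap *Wnt5a*, *Rspo1*, *Rspo3* and *Axin2*, an antisense pseudogene overlaps *Wnt11*, and *Gm20276* overlaps *Rspo3* on its own strand. The counting of reads in these overlaps is not given in the sources used here.

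The first comparison asked how Wnt genes differed between the adventitial and the alveolar stromal cells. *Wnt2* was lower in adventitial cells, and *Wnt5a*, *Wnt11*, *Rspo1*, *Sfrp1* and *Dkk3* were higher, by edgeR's quasi-likelihood test, in which the library was a block and p-values were adjusted by Benjamini-Hochberg. Of the 10 members 9 passed the filter on low counts, *Wif1* through its adventitial sums alone. Of the other 8, 5 were called higher and 1 lower at an adjusted p under 0.05, where over all 12521 genes tested 16.8% were called higher and 14.9% lower. Their median log2 fold change was 0.95, against -0.02 over all genes tested. Every p-value rests on sums from 2 libraries. It measures the spread of the class differences between them, since the library block takes out shifts that the classes share. The fit estimates this spread with help from all genes tested. An SE is therefore not a gene's own spread between the libraries alone and can understate it. In the fit without the library as a block 167 genes in place of 3973 were called, and *Sfrp1* was the 1 member among them.

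*Wnt2*, a canonical ligand of lung mesenchyme, had adventitial levels of 75.2 and 58.4 CPM in libraries 1 and 2, and alveolar levels of 281 and 127 CPM. Both alveolar sums lay above both adventitial sums, and the intermediate cells lay between them at 197 and 103 CPM. *Wnt2* fell by 1.45 ± 0.13 (SE) on the log2 scale from alveolar to adventitial cells (edgeR adjusted p = 2.57e-05), a level 3.73-fold lower in library 1 and 2.18-fold lower in library 2. Along *Dcn* itself the *Wnt2* level of library 1 fell at every step, from 281 CPM at 0 UMIs through 197, 118 and 64.6 to 24.1 CPM in cells with 30 or more *Dcn* UMIs. In library 2 the same bins gave 127, 103, 74.2, 57.2 and 38.4 CPM. The libraries differed mostly at the alveolar end, where library 2 held 0.453 times the level of library 1, against 1.6 times in the cells with the most *Dcn*. With 1 library on each occasion this difference could not be tested.

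At equal depth of 2000 UMIs per cell, *Wnt2* was found in 41.5% and 23.0% of alveolar cells and in 12.9% and 10.9% of adventitial cells. Without thinning the shares were 60.1% and 51.9% against 28.0% and 41.4%. In immune cells, with median depths of 3024 and 4552 UMIs, 0 of 266 and 0 of 334 cells held a *Wnt2* UMI, which at 3 cells of the total allows shares of up to 1.13% and 0.898% with a UMI. The lower adventitial level thus stood in the share of cells with the transcript as well as in the sum.

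*Wnt5a*, a ligand known for β-catenin-independent signalling, showed the opposite order. Its levels were 43.0 and 56.5 CPM in adventitial cells and 20.7 and 27.6 CPM in alveolar cells. All adventitial sums exceeded the alveolar ones, by 2.07-fold in library 1 and 2.05-fold in library 2, with a log2 fold change of 1.08 ± 0.10 (SE, edgeR adjusted p = 3.76e-05). The intermediate cells held 34.6 and 36.0 CPM. In library 2 *Wnt5a* rose across all *Dcn* bins, from 27.6 to 63.7 CPM, while in library 1 it reached 45.8 CPM at 3 to 9 *Dcn* UMIs and stood at 40.6 CPM in the last bin.

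*Wnt11*, another ligand with known non-canonical actions, was scarce in stroma, at 6.48 and 4.75 CPM in adventitial cells (41 and 55 UMIs) and at 3.29 and 2.27 CPM in alveolar cells. The adventitial sums were higher in both libraries, by 1.97-fold and 2.09-fold, with a log2 fold change of 1.06 ± 0.21 (SE, edgeR adjusted p = 0.00397). DESeq2 gave the same fold change with an adjusted p of 0.0503, so the call was lost there.

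The R-spondins differed from each other. *Rspo1* held 9.64 and 4.66 CPM in adventitial cells and 3.54 and 2.14 CPM in alveolar cells. Each adventitial sum was above both alveolar sums, and the fold was 2.72 in library 1 and 2.18 in library 2 (log2 fold change 1.33 ± 0.21, SE, edgeR adjusted p = 0.00116). In library 1, 2 cells with mesothelial markers (*Msln*, *Upk3b*, *Wt1*) held 10 of the 61 adventitial UMIs of *Rspo1*, and without them the adventitial level was 8.08 CPM. With such cells left out, an alternative added after seeing the data, the log2 fold change was 1.2 (edgeR adjusted p = 0.00185). Its highest level among *Dcn* bins was at 10 to 29 UMIs, with 13.2 and 6.36 CPM. *Rspo3* held 1.42 and 1.99 CPM in adventitial cells and 1.66 and 1.37 CPM in alveolar cells. These values overlapped, and no difference was detectable at this depth of 9 and 23 adventitial UMIs (log2 fold change 0.28 ± 0.35, SE, edgeR adjusted p = 0.587).

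Among the secreted inhibitors, *Sfrp1*, which binds Wnt ligands, had 130 and 189 CPM in adventitial cells and 39.7 and 60.7 CPM in alveolar cells. The groups did not overlap, and the ratio was 3.27 in library 1 and 3.11 in library 2. The log2 fold change of 1.71 ± 0.09 (SE) had an edgeR adjusted p of 6.37e-07. The intermediate cells, with only 1 to 2 *Dcn* UMIs, already held 106 and 130 CPM of *Sfrp1*, and the bins from 3 UMIs upward differed little, spanning 125 to 134 CPM in library 1 and 181 to 196 CPM in the other. After thinning, 21.6% and 27.8% of adventitial and 6.17% and 8.76% of alveolar cells held a *Sfrp1* UMI, against 0 of 185 and 0 of 310 immune cells of the same depth, which at 3 cells of the total allows up to 1.62% and 0.968%.

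*Dkk3*, a divergent member of the Dickkopf family, had 177 and 272 CPM in adventitial cells and 108 and 148 CPM in alveolar cells. Its adventitial sums were higher in both libraries, by 1.64-fold and 1.84-fold, with a log2 fold change of 0.84 ± 0.06 (SE, edgeR adjusted p = 6.18e-06). *Dkk3* and *Sfrp1* were both higher in library 2 than in library 1 in the alveolar cells, by 1.37-fold and 1.53-fold, where *Wnt2* was lower.

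*Wif1*, which binds Wnt proteins outside the cell, and *Dkk2*, a ligand of the LRP co-receptors, were rare transcripts, with most of their stromal UMIs in adventitial cells. *Wif1* gave 41 and 12 UMIs in adventitial cells (6.48 and 1.04 CPM) and 1 and 0 UMIs in alveolar cells, so it passed the filter only through the adventitial sums. The ratio was 152 in library 1, with a 95% counting interval of 25.8 to 6141. In library 2 it was 13.4 when taken against a floor of 3 alveolar UMIs in that library, and its counting interval began at 9.31. No p is given, since the filter let the gene in by its high class alone. Library 2 held 0.16 times the *Wif1* level of library 1 in adventitial cells. *Dkk2* gave 12 and 3 UMIs in adventitial cells and 2 and 1 in alveolar cells and was not tested. Its ratio was 22.2 (95% counting interval 4.95 to 204) in library 1 and 10.1 (0.807 to 527) in library 2, so in library 2 the interval held equality.

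*Axin2*, a negative regulator induced by β-catenin signalling and often read as a measure of it, had 38.7 and 45.3 CPM in adventitial cells and 59.2 and 44.9 CPM in alveolar cells. The groups overlapped, since library 1 was lower in adventitial cells at 0.654 times the alveolar level and library 2 was level at 1.01 times. The log2 fold change was -0.23 ± 0.12 (SE, edgeR adjusted p = 0.174). With no filter on low counts its adjusted p was 0.0265.

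**Figure D1:**
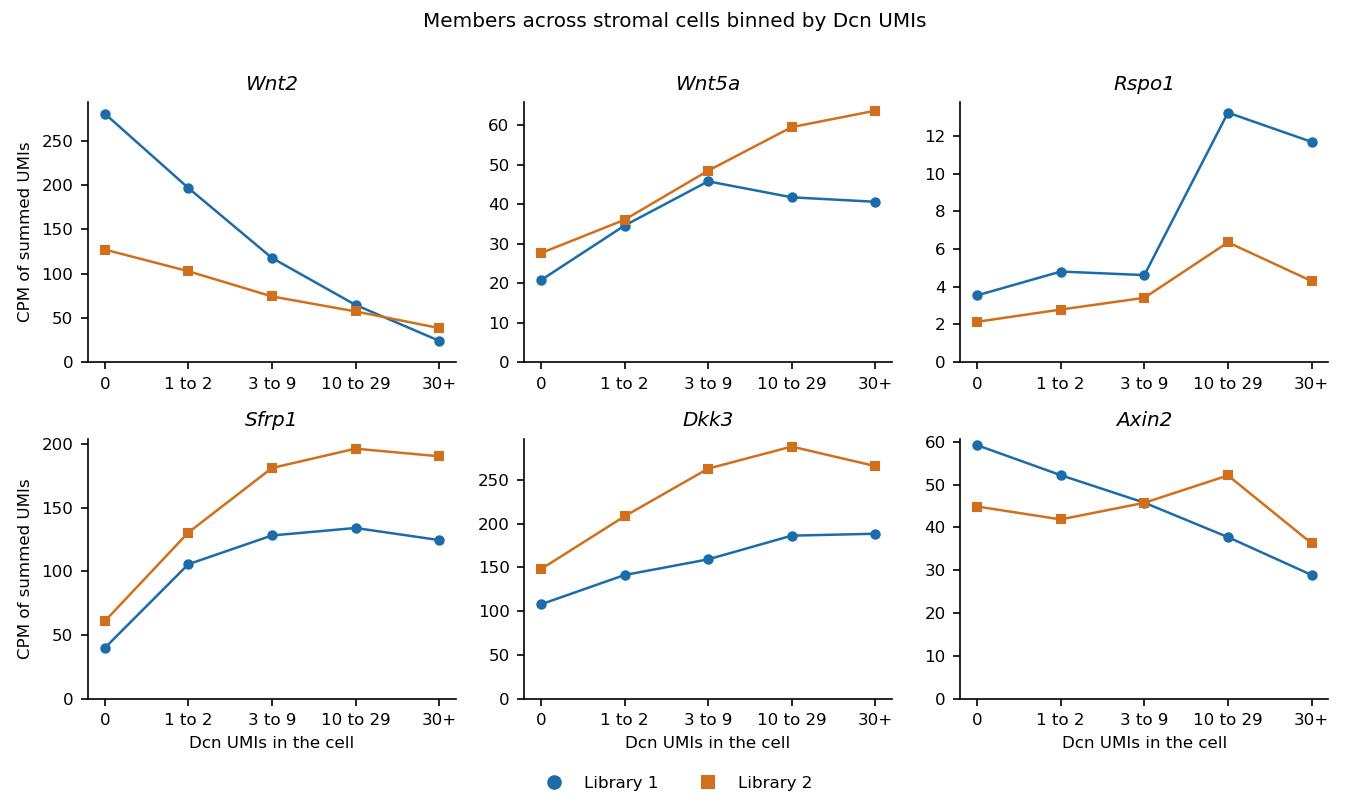
CPM of summed UMIs (y axis, linear, from 0) of 6 members in stromal cells binned by their Dcn UMIs (x axis); circles are library 1 and squares library 2, 1 sum per point. Wnt2 falls along the bins in both libraries while Sfrp1 and Dkk3 rise from 0 to 3 to 9 UMIs, and the Axin2 lines cross.

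The members were also read together in single cells. Among alveolar cells thinned to 2000 UMIs, *Wnt5a* was found in 2.8% and 4.03% of cells with a *Wnt2* UMI and in 4.62% and 4.91% of cells without. *Sfrp1* was found in 4.32% and 7.27% of alveolar cells with *Wnt2* and in 7.49% and 9.2% of those without, while in adventitial cells the order was opposite, at 24.8% and 29.4% against 21.1% and 27.6%. *Sfrp1* was found in 11.7% and 12% of alveolar cells with *Wnt5a* and in 5.95% and 8.6% of those without. In adventitial cells *Wnt5a* stood in 10.9% and 8.26% of the *Wnt2* cells and in 7% and 11.5% of the others, so the libraries differed in direction. These shares describe cells of 2 libraries and were not tested.

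**Figure D2:**
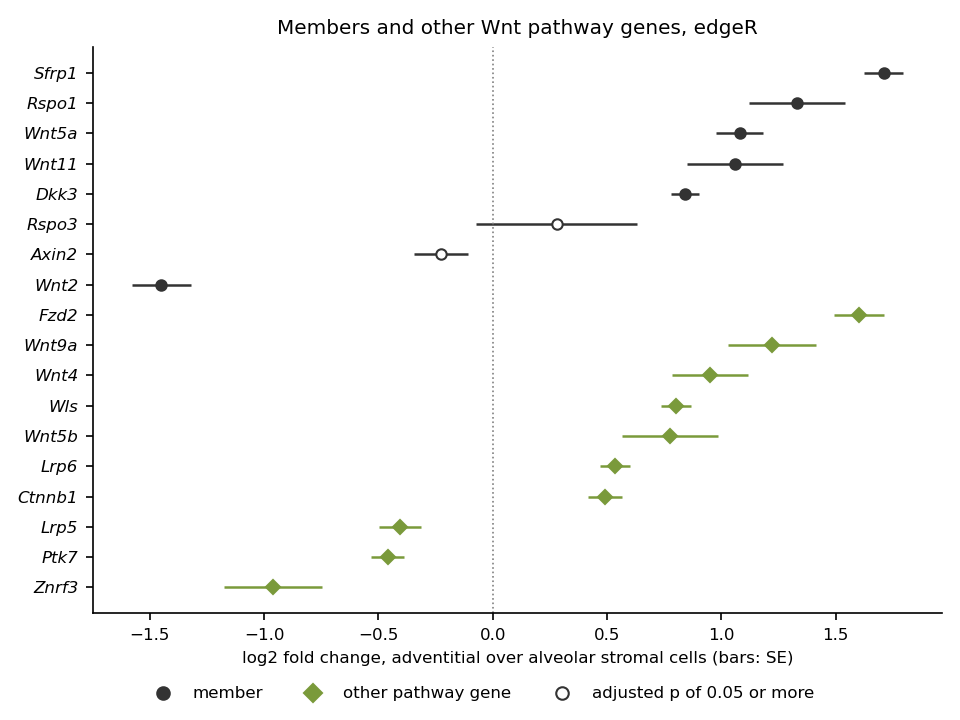
edgeR log2 fold change of adventitial over alveolar stromal cells (x axis, bars are SE) for 8 members (circles) and 10 other Wnt pathway genes (diamonds); open symbols have an adjusted p of 0.05 or more. Wnt2 lies at -1.45 and Sfrp1 at 1.71, and Wif1, with 1 and 0 alveolar UMIs, is not drawn.

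The rest of the pathway was read from lists of ligands, receptors, inhibitors, mediators and targets, 80 genes in all. Of the 70 that were not members 39 were tested, and 12 (30.8%) were higher and 3 (7.69%) lower in adventitial cells. Over all 12521 genes tested 16.8% were higher and 14.9% lower. The median log2 fold change of the 39 was 0.15, against -0.02 over all genes. The ligands other than the members showed 1 direction. Of 16 such ligands 4 were expressed enough to be tested, and all 4 were higher in adventitial cells. *Wnt9a* held 18.2 and 15.3 CPM there and 5.72 and 8.59 CPM in alveolar cells (log2 fold change 1.22, SE 0.19, edgeR adjusted p = 0.00114). *Wnt4* held 156 and 30.7 CPM against 67.1 and 22.1 CPM (0.95, SE 0.17, adjusted p = 0.00202), with the library 2 adventitial sum below the alveolar sum of library 1. *Wnt5b* held 20.9 and 8.81 CPM against 9.18 and 7.3 CPM (adjusted p = 0.0187), a call lost with DESeq2 at 0.0571. *Wnt6*, named after its values were seen, held 3.16 and 2.76 CPM against 0.64 and 1.29 CPM. *Wls*, the carrier that takes Wnt proteins to the cell surface, was higher as well, at 95.3 and 121 CPM against 56.8 and 70.5 CPM (0.80, SE 0.07, adjusted p = 1.37e-05).

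Receptors and feedback targets were read by list. Over all 12521 genes tested, 16.8% were called higher and 14.9% lower in adventitial cells. The counts per list below are small and were not tested against these shares. Of 7 tested Frizzled receptors 2 were higher in adventitial cells and 5 did not pass. *Fzd2* held 75.4 and 52.5 CPM in adventitial cells and 22.8 and 19.9 CPM in alveolar cells (log2 fold change 1.60 ± 0.11, SE, edgeR adjusted p = 4.52e-06). Of 7 tested co-receptors 2 were higher and 2 lower. *Lrp6* was higher at 72.4 and 158 CPM against 55.0 and 106 CPM, while its relative *Lrp5* was lower at 22.3 and 25.7 CPM against 32.5 and 33.0 CPM, a call lost with DESeq2 (0.0928) and with thinned cells (0.0763). *Ptk7*, a pseudokinase co-receptor, was lower at 78.7 and 78.1 CPM against 125 and 99.6 CPM. *Ctnnb1*, which encodes β-catenin, was higher at 85.0 and 143 CPM against 58.5 and 110 CPM. Of 7 tested feedback targets 1 was lower and 6 did not pass. The lower one was *Znrf3*, a ligase that removes Frizzled receptors, at 7.43 and 17.4 CPM against 26.9 and 24.6 CPM (log2 fold change -0.96, SE 0.21, adjusted p = 0.00762). *Wnt4*, *Wnt5b*, *Lrp6* and *Ctnnb1* were higher in adventitial cells within each library, while their ranges over the libraries overlapped.

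The second set of comparisons asked how the levels of the members differed between lung classes. All stromal cells were set against endothelial, epithelial and immune cells in 1 fit, in which 7 of the 10 members passed the filter and *Rspo1*, *Dkk2* and *Wif1* did not. Of these 7, *Wnt2*, *Wnt5a*, *Sfrp1* and *Dkk3* passed through the stromal sums alone, *Rspo3* through the endothelial and *Wnt11* through the immune sums. Only *Axin2* passed through several classes, so no count or median over the members is given for this fit. Over all 11832 genes tested, 17.4% were higher and 14.7% lower in stroma than in endothelial cells, 24.2% and 21.8% against epithelial cells, and 27.1% and 23.7% against immune cells. The normalization for composition moved fitted fold changes away from ratios of CPM, whose log2 lay 0.55 higher than the fit for the epithelial, 0.28 higher for the immune and 0.19 lower for the endothelial comparison at the median gene.

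*Wnt2* in all stromal cells stood at 232 and 110 CPM. It reached 8.37 and 5.41 CPM in endothelial cells (1 and 10 UMIs), 0.578 and 0.732 CPM in epithelial cells (5 and 1 UMIs), and 0 UMIs in immune cells of both libraries. The stromal level was 27.7-fold (95% counting interval 4.97 to 1094) and 20.3-fold (11.1 to 42.4) that of endothelial cells in libraries 1 and 2, and at least 139-fold higher than in immune cells, taken against a floor of 3 UMIs over both libraries. No p is given for *Wnt2* between these classes, since the filter let it in by its stromal sums alone. The endothelial *Wnt2* level was 3.61% and 4.92% of the stromal one. Among *Col1a1*, *Col3a1*, *Tcf21*, *Loxl1* and *Fhl1* this share ran from 0.995% for *Loxl1* to 7.79% for *Fhl1*, both in library 2. In library 2 only *Fhl1* of these stood above *Wnt2*, and the next, *Tcf21*, stood at 2.85%.

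*Wnt5a*, *Sfrp1* and *Dkk3* had the same order of classes, with stroma above the other classes in both libraries. *Wnt5a* held 26.6 and 34.5 CPM in stroma, 0 and 2.16 CPM in endothelial, 0.116 and 1.47 CPM in epithelial cells and 0 UMIs in immune cells. *Sfrp1* held 64.8 and 95.8 CPM in stroma, 8.37 and 1.62 CPM in endothelial cells (1 and 3 UMIs), 0.231 and 0 CPM in epithelial cells and 0 UMIs in immune cells. *Dkk3* held 125 and 181 CPM in stroma, 8.37 and 5.41 CPM in endothelium, 0.462 and 1.47 CPM in epithelial and 3.42 and 3.86 CPM in the immune class. Against immune cells the stromal levels of *Wnt5a* and *Sfrp1* were at least 28.3-fold and 75.7-fold higher over both libraries. The order among the 3 lower classes rested on few UMIs and is not separable by these counts. These 3 genes also passed the filter through the stromal sums alone, so no p is given for them.

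*Axin2* was present in every class. It held 54.5 and 44.5 CPM in stroma, 16.7 and 18.9 CPM in endothelial cells (2 and 35 UMIs), 15.7 and 17.6 CPM in epithelial cells (136 and 24 UMIs), and 1.14 and 7.72 CPM in immune cells (1 and 14 UMIs). Both stromal sums lay above all others, the endothelial and epithelial sums overlapped, and the immune sums were lowest. The log2 fold changes of stroma were 1.58 ± 0.38 over endothelial (adjusted p = 0.00184), 1.04 ± 0.29 over epithelial (0.00428) and 2.93 ± 0.41 (SE) over immune cells (1.1e-06) by edgeR. The epithelial difference was lost with DESeq2 (0.0784), without the library block (0.0543) and with thinned cells (0.272).

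**Figure D3:**
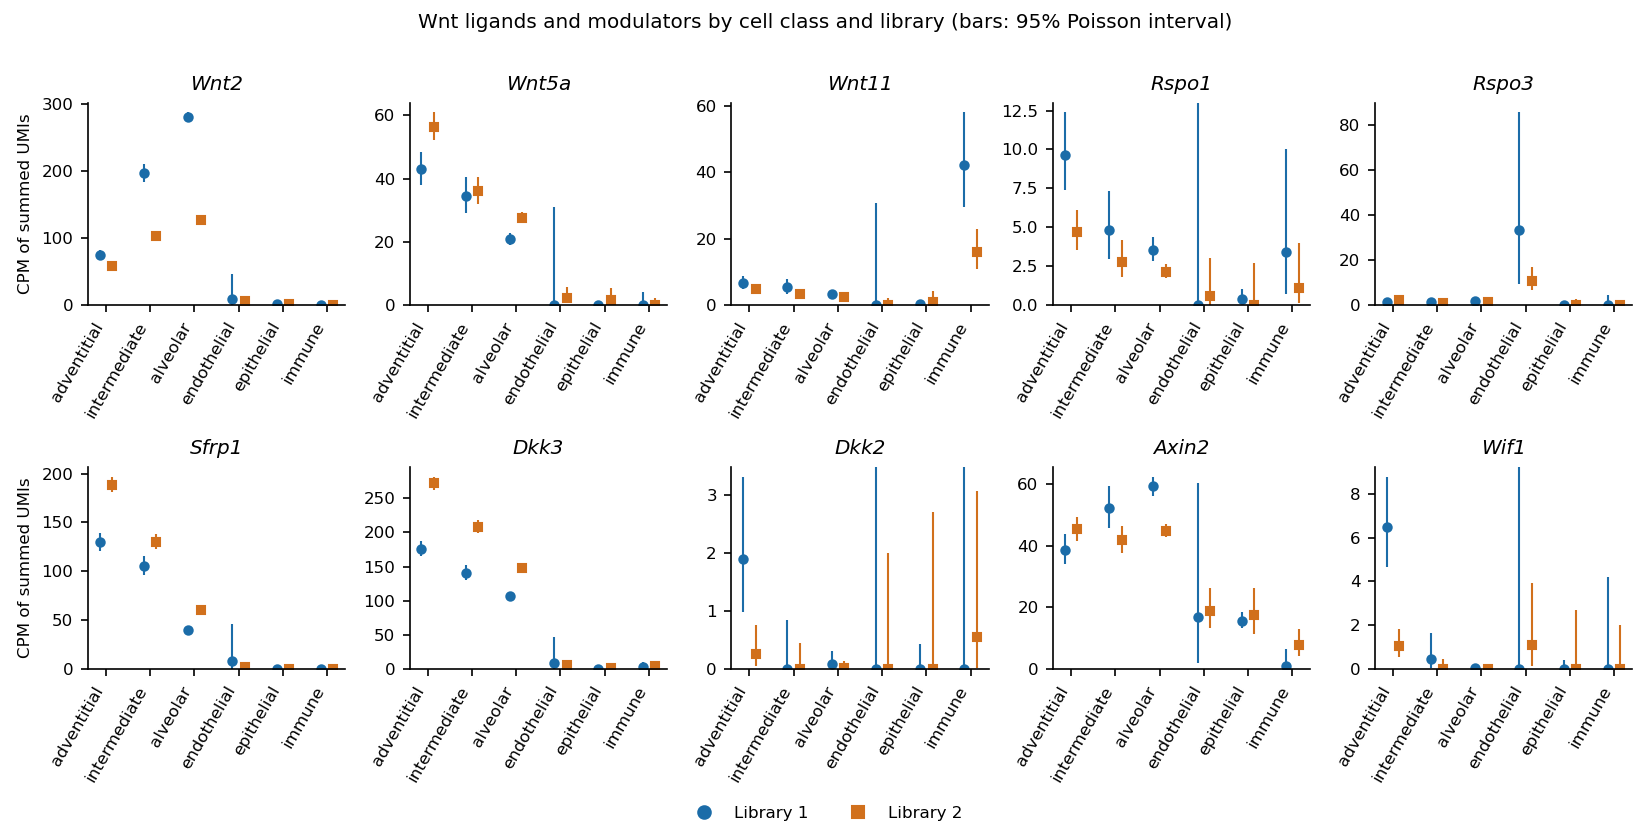
CPM of summed UMIs (y axis, linear, own scale per gene) of the 10 members in 6 cell classes; circles are library 1, squares library 2, and bars are 95% Poisson intervals, some of which run past the axis at 0 UMIs in the Rspo1, Dkk2 and Wif1 panels. Wnt2 is highest in alveolar cells, Rspo3 in endothelial and Wnt11 in immune cells.

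*Rspo3* stood at its highest level in endothelial cells. It held 33.5 and 10.8 CPM there (4 and 20 UMIs), 1.58 and 1.43 CPM in stroma, and 0 UMIs in epithelial and immune cells. Most of its UMIs lay outside the endothelial class, with 54 and 84 in stromal cells and 6 and 139 in the dropped cells that passed several gates. The endothelial level was 21.2-fold the stromal level in library 1 and 7.55-fold in library 2. The edgeR log2 fold change of stroma over endothelium was -3.18 ± 0.76 (SE). No p is given, since the filter let *Rspo3* in by its endothelial sums alone. The transcripts lay in 3 of 56 and 11 of 360 endothelial cells, 5.36% and 3.06%, with Clopper-Pearson 95% intervals of 1.12% to 14.9% and 1.54% to 5.4%. In stromal cells, with medians of 4297 and 7084 UMIs against 1899.5 and 4029 in endothelial cells, the shares were 0.615% and 0.847%. Intervals here cover counting error only. In library 2, 3 endothelial cells with lymphatic markers (*Prox1*, *Mmrn1*, *Ccl21a*) held 4 of the 20 UMIs, the summed lymphatic markers of the class stood at 50.2 and 797 CPM, and the level without these cells was 8.87 CPM. With them left out the edgeR log2 fold change was -3.00.

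*Wnt11* stood at its highest level in immune cells, at 42.2 and 16.0 CPM (37 and 29 UMIs) against 4.13 and 2.92 CPM in stroma. Most of its UMIs lay outside the immune class, with 141 and 171 in stromal cells and 61 and 117 in the dropped cells that passed several gates. *Wnt11* was at 0 UMIs in endothelial cells of both libraries and at 2 and 1 UMIs in epithelial cells. The immune level was 10.2-fold the stromal level in library 1 and 5.48-fold in library 2. The edgeR log2 fold change of stroma over immune cells was -3.19 ± 0.46 (SE). No p is given, since the filter let *Wnt11* in by its immune sums alone. The transcripts came from 15 of 266 and 17 of 334 immune cells, with up to 6 and 4 UMIs in a single cell. In a subset chosen after the values were seen, the 52 and 59 immune cells with 2 or more UMIs of *Cd209a*, *Ccl17* and *Mgl2*, genes known from dendritic cells, *Wnt11* stood at 115 and 51.2 CPM, and this subset held 81.1% and 96.6% of all immune *Wnt11* UMIs. The other immune cells held 11.4 and 0.79 CPM. The call of *Wnt11* as higher in stroma than in endothelial cells rested on library 2, since in library 1 its floor of 3 endothelial UMIs, 25.1 CPM, lay above the stromal level, and it was lost with DESeq2 (0.0831), with the gate at 5 UMIs (0.0881), with cells free of other gates' UMIs (0.0815) and with thinned cells (0.085).

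*Rspo1* was not tested between classes. It held 4.83 and 2.73 CPM in stroma, 3.42 and 1.1 CPM in immune cells (3 and 2 UMIs), 0 and 1 UMIs in endothelial and 3 and 0 UMIs in epithelial cells, and the immune and stromal values overlapped. *Wif1* gave 44 and 12 stromal UMIs (1.29 and 0.205 CPM), 2 endothelial UMIs in library 2 (1.08 CPM) and 0 in epithelial and immune cells. In library 2 the 95% counting interval of its ratio of stroma over endothelium, 0.0421 to 1.74, held equality. A further 1 and 12 *Wif1* UMIs lay in the dropped cells that passed several gates. *Dkk2* gave 14 and 4 stromal UMIs (0.41 and 0.0683 CPM) and 1 immune UMI in library 2 (0.552 CPM).

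Within the adventitial class the UMIs of *Wif1* were unevenly spread. Of the stromal *Wif1* UMIs 93.2% and 100% lay in adventitial cells. Within these, 80.5% and 100% of *Wif1* UMIs lay in the 240 and 226 cells with 3 or more UMIs of *Adh7* and *Smoc2*, a subset chosen after the values were seen that held 25.9% and 26.8% of all adventitial UMIs. There *Wif1* stood at 20.1 and 3.87 CPM, against 1.71 and 0 CPM in the other adventitial cells. *Dkk2* gave 7 and 1 UMIs in the subset and 5 and 2 outside it, too few in library 2 to place. In the 242 and 94 stromal cells with *Pi16*, a marker of adventitial fibroblasts, *Wif1* stood at 20.7 and 1.78 CPM, *Sfrp1* at 121 and 171 CPM and *Wnt2* at 24.0 and 34.8 CPM. In the 116 and 261 stromal cells with 3 or more UMIs of *Hhip* and *Aspn*, *Wif1* stood at 23.05 and 0.973 CPM (18 and 3 UMIs). There *Sfrp1* stood at 129 and 168 CPM, *Wnt5a* at 29.5 and 58.1 CPM and *Wnt2* at 44.8 and 52.5 CPM. *Wnt2* was below its alveolar level in both groups and both libraries.

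**Figure D4:**
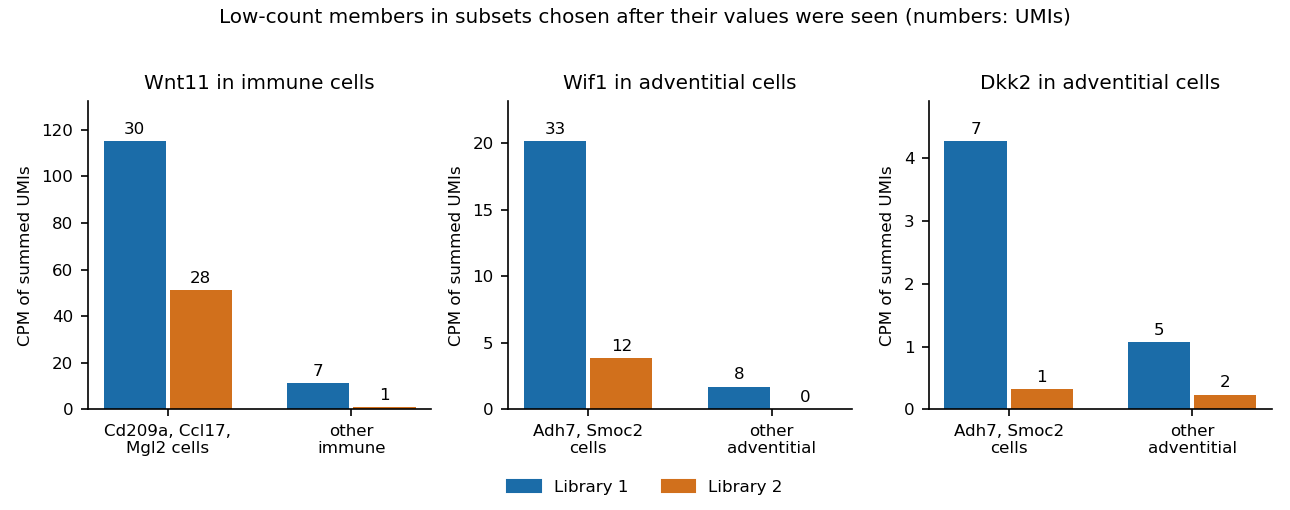
CPM of summed UMIs (y axis, linear, from 0) of Wnt11 in immune cells and of Wif1 and Dkk2 in adventitial cells, split by marker UMIs into subsets chosen after the values were seen; blue bars are library 1, orange bars library 2, and the numbers above are UMIs. Wnt11 gave 30 and 28 UMIs in the subset against 7 and 1 in other immune cells.

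Receptors and targets outside the set were read between classes as well. Of 40 tested pathway genes that were not members, 11 passed the filter through 1 class alone. Of the other 29, 31.0% were higher and 17.2% lower in stroma than in endothelial cells, beside 17.4% and 14.7% of all genes. Against epithelial cells 24.1% were higher and 27.6% lower, close to the 24.2% and 21.8% of all genes. Against immune cells 69.0% were higher and 3.45% lower, beside 27.1% and 23.7% of all genes. Their median log2 fold changes were 0.45, 0.06 and 1.63, beside 0.12, 0.09 and 0.13 over all genes. *Fzd6* was an endothelial and epithelial receptor, at 16.7 and 40.0 CPM in endothelial and 16.1 and 15.4 CPM in epithelial cells against 0.0293 and 0.0512 CPM in stroma and 0 and 0.552 CPM in immune cells (edgeR adjusted p = 4.86e-12 and 7.78e-13). *Sp5*, a target of β-catenin, and *Rnf43*, a ligase that removes Frizzled receptors, were epithelial. *Sp5* held 21.3 and 19.8 CPM in epithelial cells against 0.0586 and 0.0341 CPM in stroma, and *Rnf43* 10.4 and 19.0 CPM against 0.117 and 0.222 CPM. No p is given for either gene, since both passed the filter through the epithelial sums alone. *Tnfrsf19*, another known target, was stromal at 96.0 and 78.1 CPM, with 0 and 2.71 CPM in endothelial, 0.578 and 0.732 CPM in epithelial and 1.14 and 1.66 CPM in immune cells. *Notum*, a deacylase that inactivates Wnt proteins, held 23.5 and 9.98 CPM in stroma, 9.36 and 14.7 CPM in epithelial cells, where the ranges overlapped, and 0 UMIs in endothelial cells. *Fzd2* held 34.7 and 28.6 CPM in stroma and 12.1 and 10.99 CPM in epithelial cells, and *Ptk7* 113 and 94.4 CPM against 25.2 and 22.0 CPM. Both stood at 5.95 CPM or less in endothelium and at 1.14 CPM or less in immune cells. *Fzd3* held 16.6 and 22.2 CPM in stroma and 0 UMIs in immune cells, and *Wnt4* held 84.8 and 24.5 CPM in stroma and 1.27 and 2.93 CPM in epithelial cells.

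Genes with the most similar pattern were named for each member by Pearson's r of log2(CPM + 1) over 12 sums (6 classes in 2 libraries, which share libraries and depths) with 8770 genes averaging 10 CPM or more searched. *Wnt2* was most like *Mxra8* (r = 0.991), and *Lrp4* was also among its nearest genes. *Wnt5a* was most like *Trabd2b* (r = 0.995), *Dnm1* and *Osr1*. *Sfrp1* was most like *Adh1* (r = 0.993), *Mdk* and *Epha3*, and *Dkk3* most like *C1s1* (r = 0.996), *Col1a1* and *Adamts2*. *Axin2* was most like *P3h4* (r = 0.984), *Airn* and *Gtf3c1*. *Wnt11* was most like *Gm2a* (r = 0.973), *Slamf9* and *Basp1*, and *Rspo3* most like *Mapk3* (r = 0.977), *Cbx1* and *Clec14a*. The values were lower for the rare *Wif1*, most like *Adh7* (r = 0.829), *Manba* and *Svil*, and *Dkk2*, most like *Capn1* (r = 0.784), *Pi16* and *Adh7*. *Rspo1* was most like *Cxcl1* (r = 0.935), *Lgmn* and *Uxs1*.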

How the data were processed

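UV-positive lung cells were sorted and sequenced as 2 10x single-cell libraries. Per the submitters' processing notes the authors ran Cell Ranger 5.0.1 against mm10, and they deposited the resulting counts of UMIs per gene and cell, not normalized. Cells were kept from 200 genes upward if mitochondrial UMIs did not exceed 10%, and were gated at 3 UMIs. Cells passing several gates were dropped as possible doublets, with no doublet caller run, and leaving out the 8% of cells with the most UMIs was an alternative. UMIs were summed per class and library. edgeR 4.0.16 was fitted (glmQLFit, filterByExpr, TMM, two-sided tests, Benjamini-Hochberg over all genes tested) to 6 sums of stromal classes and, separately, to 8 sums of 4 classes, leaving 2 and 3 residual degrees of freedom, with the library as a block. Classes of the same number came from the same library, and their differences between libraries correlated across genes at r = 0.794 for adventitial and alveolar cells and at 0.125 to 0.358 between the 4 classes. Counting intervals are at 95% (exact Poisson or binomial). The scripts were tested on simulated data. DESeq2 1.42.0, R 4.3.3 and Python 3.11.15 were used. All members were named, and of other pathway genes the called ones with the largest fold change at 10 or more CPM, up to 10 between stromal classes and 5 in each other comparison. Up to 3 genes of most similar pattern were named for each member, and 1 such gene is not reported here. Members, lists and gates were chosen with earlier results of these data known, and no choice is independent of them.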

Additional observations from a re-analysis of the deposited data

How the results depend on the processing

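Each result was recomputed with at most 5% mitochondrial UMIs, gates at 2 and at 5 UMIs, cells without UMIs of other gates, the 8% deepest cells left out, cells thinned to 2000 UMIs, no filter on low counts, RLE size factors, DESeq2 and no replicate block, and between stromal classes with *Dcn* at 10 UMIs and with intermediate cells left out of the fit. Leaving out the 23 barcodes found in both libraries, and cells with mesothelial or lymphatic markers, was chosen after seeing the data. The 55 results on named genes kept their direction wherever these alternatives tested them, and none changed its side of the threshold with 5% mitochondrial UMIs, the gate at 2 UMIs, the deepest cells left out, RLE, *Dcn* at 10 UMIs or with either of these sets left out. Among the 55 are genes that passed the filter through 1 class alone, such as *Wnt2* between lung classes and *Wif1* between stromal classes. For these a kept direction says little, since the filter favoured it. Without the replicate block the count between adventitial and alveolar cells went from 3973 to 167 genes, with *Sfrp1* the 1 member left. In that fit 17 named results lost their call, and the counts against endothelial, epithelial and immune cells were 2919, 4096 and 4859. DESeq2 called 2136 genes between the stromal classes, 2133 of them shared with edgeR. With cells thinned to 2000 UMIs, which leaves fewer UMIs and fewer genes tested, 1882 genes passed between stromal classes and 3313 against epithelial cells. The latter held 4 members. *Axin2*, the only member that passed the main filter between lung classes through several classes, was not among these 4. The other members tested in that comparison passed the main filter through 1 class alone, so this count of members says little. *Rspo1* and *Wif1* were not tested with thinned cells. With either library left out no test was possible, since 1 sum per class leaves no residual degrees of freedom, and the log2 ratio of CPM kept its direction for all named results called but *Wnt11* in stroma over endothelial cells, whose values ran from -0.0129 (library 1 alone) to 3.44 (library 2 alone). *Wnt5b* lost its call with intermediate cells left out (adjusted p = 0.0591). RLE moved the median log2 fold change over immune cells by -0.12, DESeq2 by -0.13, and no filter those over endothelial, epithelial and immune cells by 0.23, 0.13 and 0.15. Depth limited the endothelial class of library 1, with 56 cells, where a count of 0 allows up to 25.1 CPM.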
